A study of Mus musculus with 6 samples.

Results

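Genes of glucose uptake and glycolysis were compared between mouse leukaemias that lack activation-induced cytidine deaminase (AID) and leukaemias that carry it. The list held 34 genes, chosen by their known roles: sugar and monocarboxylate transporters, the enzymes from hexokinase to lactate dehydrogenase, the pyruvate dehydrogenase gate and regulators of the pathway. Of these, 31 had at least 1 probe set annotated to that gene alone and were measured, out of 18194 genes tested. Gpi1, Eno1 and Pfkfb1 were not analysed here. Where a gene had several probe sets, as 18 of the 31 did, the one brightest on average over the 6 arrays stood for it. No filter on dim values was applied, so all 31 were tested.

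The arrays were Affymetrix expression arrays, and their values are on the log2 scale, so a difference of 1 is a 2-fold change. The AID-/- group held 3 leukaemias lacking the enzyme, and the AID+/+ group held 3 that carry it. All 6 were acute lymphoblastic leukaemias of the Balb/c strain driven by BCR-ABL1, a fused tyrosine kinase that stays active. Replicates are called biological, but the animals behind them, their age and sex, and any treatment or culture are not given; where replicates share an animal, p-values reflect only the spread between these samples.

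AID converts cytidine to uracil in immunoglobulin genes. Glycolysis takes up glucose through facilitative carriers, traps it as glucose 6-phosphate, splits it into triose phosphates and turns these into pyruvate. Pyruvate then leaves as lactate or enters the mitochondrion through pyruvate dehydrogenase. Proliferating B-lineage leukaemia cells are known for high glucose use. Several steps have alternative isozymes from separate genes, and many genes of the pathway are textbook targets of hypoxia-inducible factor 1 (HIF-1) and of MYC.

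The groups were close in overall signal. Across probe sets the arrays correlated at 0.991 to 0.996 within groups and at 0.972 to 0.977 between them. The defining genes of B-lineage cells averaged 10.50 to 10.71 in AID-/- and 10.66 to 10.90 in AID+/+ arrays over 8 measured genes. Of these Cd72 fell by 0.84 (adjusted p = 0.0127), and Ly6d differed by -0.82 without overlap and without passing (adjusted p = 0.120). The averages for erythroid, neutrophil and monocyte, T cell, NK cell and stromal markers lay between 3.31 and 4.61 in every array, below the median of every array (at least 4.85), and those of 5 platelet markers between 4.93 and 5.11. Single genes of these lists reached 7.36. Of the markers of other cells, 1 was higher in AID-/- leukaemia and 2 were lower; their part in the results below was not tested. Xist, the RNA of the inactive X chromosome, was at 4.35 to 6.02 in AID-/- and 11.93 to 12.18 in AID+/+ arrays, and the Y-linked Kdm5d at 7.63 to 7.74 against 2.42 to 2.68. Y-linked Uty also separated the groups, at 6.07 to 6.41 against 2.54 to 2.75, but Y-linked Eif2s3y was uneven, at 8.85, 3.67 and 2.71 in AID-/- arrays against 2.51 to 2.59 (adjusted p = 0.264). Sex and genotype cannot be told apart here. Pgk1, Pdha1 and Pdk3 of the list are X-linked. So are Phka1, Phka2, Idh3g, Prps1, Prps2 and Tktl1 of the linked pathways followed below. Prps2, counted with the pentose phosphate genes, rose by 0.31, and Phka2, counted with the glycogen genes, fell by 0.39.

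Many of the main enzymes of the pathway were lower in AID-/- leukaemia. Higher were the transporters Slc2a3, Slc2a6 and Slc16a1, the aldolase isozyme Aldoc and the side enzyme Bpgm. Of the 31 measured genes, 12 fell, 5 rose and 14 did not pass (limma, adjusted p under 0.05 over all genes). The 12 that fell make up 38.7% of the list, where 8.41% of all genes fell. The 5 that rose make up 16.1%, where 10.1% of all genes rose, and 18.5% of all genes passed in either direction. The groups of 3 arrays did not overlap for 21 of the 31, against 36.5% of all genes. AID-/- arrays lay below for 13 of these, where 19.0% of all genes did so, and above for 8, where 17.5% did. The median difference of the list was -0.09, beside -0.03 over all genes, with members on both sides. The list was compiled with earlier results of these arrays known.

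Signal level moved with the direction. Of the 31 genes, 10 were among the 1820 genes with the highest mean signal; of these 8 fell and 1 rose. Of those 1820 genes as a whole, 12% fell and 14.6% rose. The part of signal level in the result was not tested.

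**Figure D1:**
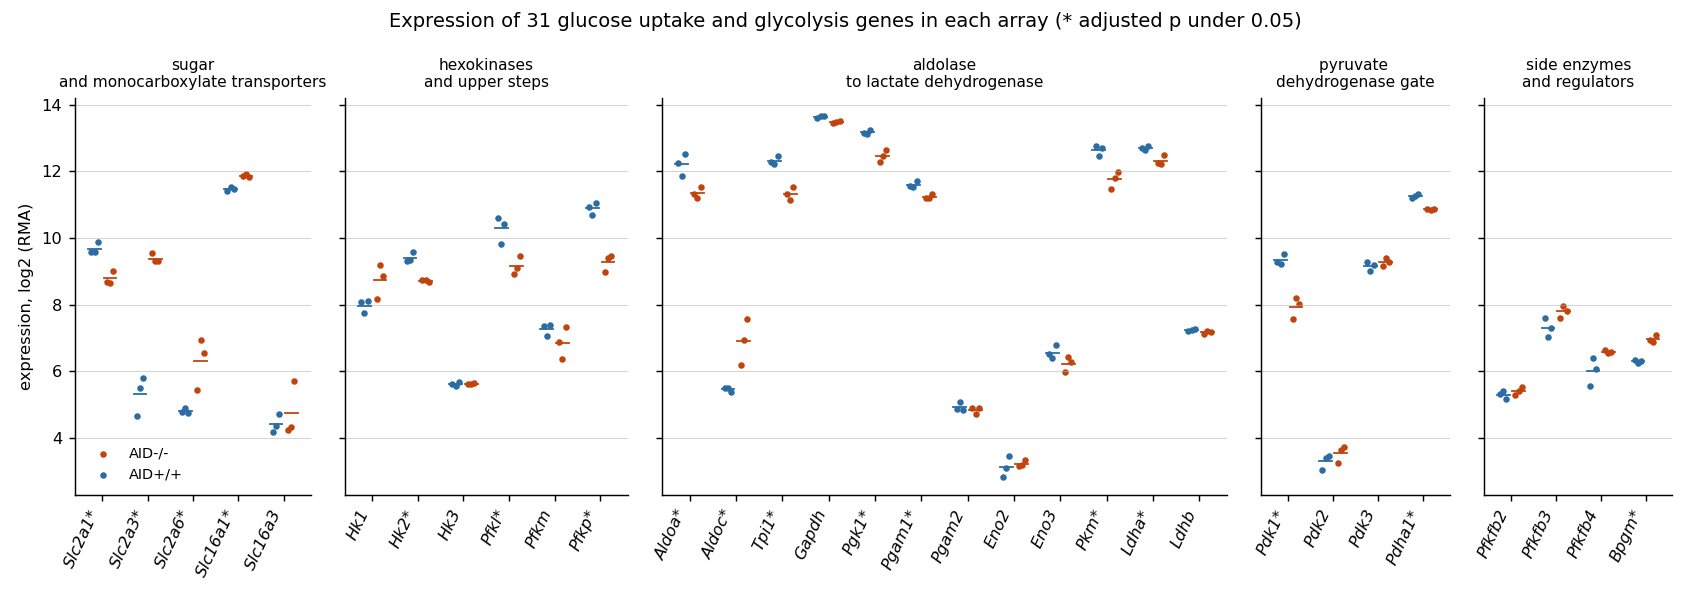
Expression of the 31 measured genes in each array, grouped by role; the vertical axis is the deposited log2 value, each point is 1 array, short lines are group means of 3 arrays, and an asterisk marks an adjusted p under 0.05. Slc2a3 separates the groups most widely, from 4.66 to 5.80 in AID+/+ to 9.30 to 9.54 in AID-/- arrays. The bright enzymes from Aldoa to Ldha lie lower in AID-/- arrays.

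The stretches before the start of 4 members are shown, because these genes moved together or in opposition and their promoters hold the letters that HIF-1 or MYC family proteins are known to bind. They cover the 250 bases before the transcription start in RefSeq (GRCm38.p6), each on the plus strand and written 5′ to 3′, at chr4:119108495-119108744 for Slc2a1, chrX:106186850-106187099 for Pgk1, chr7:46845554-46845803 for Ldha and chr3:104638414-104638663 for Slc16a1. Capitals mark ACGTG on either strand, a form of the core of the HIF-1 element, and thereby also the E-box CACGTG, which contains it. The other form of the core, GCGTG, was neither marked nor counted.
Slc2a1: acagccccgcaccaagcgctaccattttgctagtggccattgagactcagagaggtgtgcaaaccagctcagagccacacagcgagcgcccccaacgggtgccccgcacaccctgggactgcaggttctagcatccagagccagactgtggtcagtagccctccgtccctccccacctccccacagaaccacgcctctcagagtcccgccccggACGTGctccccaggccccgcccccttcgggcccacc
Pgk1: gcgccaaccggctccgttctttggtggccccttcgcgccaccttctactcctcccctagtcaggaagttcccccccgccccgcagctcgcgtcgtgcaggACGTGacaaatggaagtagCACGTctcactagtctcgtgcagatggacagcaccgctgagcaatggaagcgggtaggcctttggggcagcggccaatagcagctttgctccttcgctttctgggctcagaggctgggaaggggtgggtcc
Ldha: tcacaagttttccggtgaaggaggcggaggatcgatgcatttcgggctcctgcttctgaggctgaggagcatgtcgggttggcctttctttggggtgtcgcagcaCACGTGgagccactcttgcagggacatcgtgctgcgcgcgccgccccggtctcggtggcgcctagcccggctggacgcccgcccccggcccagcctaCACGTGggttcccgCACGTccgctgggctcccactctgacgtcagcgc
Slc16a1: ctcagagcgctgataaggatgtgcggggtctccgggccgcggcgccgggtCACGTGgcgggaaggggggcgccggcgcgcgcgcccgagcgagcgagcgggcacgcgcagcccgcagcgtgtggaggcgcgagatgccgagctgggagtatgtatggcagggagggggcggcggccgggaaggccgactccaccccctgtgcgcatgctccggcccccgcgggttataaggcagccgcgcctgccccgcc
Slc2a1, Pgk1 and Ldha fell in AID-/- leukaemia and Slc16a1 rose. These 4 were picked for holding ACGTG. Pfkp, Pdk1, Pfkl, Tpi1 and Pdha1 also fell and hold no ACGTG in any window. Ldha holds 2 copies of CACGTG and Slc16a1 holds 1. Of the measured genes 30 had a promoter entry, with 44 windows in all, some genes having several starts; Slc2a3 had none. Ldha has a second window without ACGTG, not shown. ACGTG was present in 8 of 17 windows of the genes that fell (47.1%), in 1 of 5 windows of those that rose and in 10 of 22 windows of those that did not pass (45.5%), against 16.6% of all 32851 windows of this length. Windows of a gene can overlap and share a site, as for Aldoa. By gene it was 7 of 12 that fell, 1 of 4 that rose and 7 of 14 that did not pass, against 18.5% of all genes. CACGTG was present in 1 of 17, 1 of 5 and 4 of 22 windows, against 6.02% of all. These windows are rich in G and C (66.4%, 62.8%, 67.2% and 76.4% for the 4 shown), and letters found in them are a description, not a binding site.

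Among the 5 transporters 3 rose and 1 fell, and the glucose carriers Slc2a3 and Slc2a1 moved in opposite directions. Slc2a3, which encodes the high-affinity carrier GLUT3, was at 9.54, 9.30 and 9.31 in AID-/- replicates 1 to 3 and at 4.66, 5.51 and 5.80 in AID+/+ replicates 1 to 3. All AID-/- arrays lay far above all AID+/+ arrays, and the difference of 4.06 (SE 0.26), or 16.7-fold, ranked 48 of 18194 genes by size (adjusted p = 4.74e-05). Its 4 probe sets all pointed up but by different amounts. The 2 bright ones differed by 4.06 and 4.08, and the 2 dim ones by 1.09 and 0.50, the last without passing. Both bright probe sets carry an Affymetrix suffix for probes that can match other transcripts (s_at and x_at); the part of this in the size was not tested. With the 4 probe sets averaged, Slc2a3 was higher by 2.43.

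Slc2a1, which encodes GLUT1, the basal glucose carrier of many cells, was at 8.69, 8.66 and 9.01 in AID-/- and 9.58, 9.59 and 9.87 in AID+/+ arrays. It fell by 0.89 (SE 0.13), or 1.86-fold (adjusted p = 0.00269), with no overlap, and all 3 of its probe sets passed. Slc2a6 encodes GLUT6, a carrier found mainly on lysosomes. Its values were 5.44, 6.94 and 6.55 in AID-/- and 4.77, 4.89 and 4.76 in AID+/+ arrays. The AID-/- arrays were uneven, with replicate 1 lowest. It rose by 1.50 (SE 0.33, adjusted p = 0.0165), but did not pass once AID-/- replicate 3 or any of the AID+/+ arrays was left out (highest adjusted p = 0.0622).

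Slc16a1, which encodes the lactate and pyruvate carrier MCT1, stood at 11.85, 11.92 and 11.83 in AID-/- and 11.42, 11.54 and 11.46 in AID+/+ arrays. The rise was small but narrow, at 0.39 (SE 0.08, adjusted p = 0.0124), and both of its probe sets passed; without AID+/+ replicate 3 the adjusted p was 0.0543. Slc16a3, the export carrier MCT4, did not pass. One AID-/- array, replicate 3, read 5.71, while the others read 4.24 and 4.33 and the AID+/+ arrays 4.19 to 4.72.

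Hexokinases trap glucose in the cell by phosphorylation. Hk2, the inducible isozyme, was at 8.75, 8.73 and 8.68 in AID-/- and 9.30, 9.34 and 9.58 in AID+/+ arrays, with little spread in either group. It fell by 0.69 (SE 0.10), or 1.61-fold (adjusted p = 0.00259). Hk1, the constitutive isozyme, read 8.18, 9.18 and 8.84 in AID-/- and 8.07, 7.75 and 8.10 in AID+/+ arrays. The groups did not overlap, but AID-/- replicate 1 lay close to the AID+/+ arrays, and the difference of 0.76 (SE 0.24) did not pass (adjusted p = 0.0614). Its other, dimmer probe set was higher by 1.08 and passed over all probe sets (adjusted p = 0.0178), and without AID-/- replicate 1 Hk1 was higher by 1.04 (adjusted p = 0.00380). Hk3, mainly a myeloid isozyme, lay at 5.63 in both groups, with a 95% interval of the difference from -0.18 to 0.19.

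Phosphofructokinase catalyses the committed step of glycolysis, and its subunits held the largest decrease of the list. Pfkp, the platelet-type subunit, was at 8.98, 9.40 and 9.46 in AID-/- and 10.92, 10.70 and 11.04 in AID+/+ arrays. It fell by 1.61 (SE 0.15), or 3.05-fold (adjusted p = 0.000346), at all 3 probe sets. Pfkl, the liver-type subunit, was at 8.91, 9.11 and 9.47 against 10.61, 9.82 and 10.43. It fell by 1.12 (SE 0.22, adjusted p = 0.0101), with AID+/+ replicate 2 the nearest to the AID-/- arrays; its dimmest probe set, below the array medians, differed by -0.02, and over all 3 the fall was 0.68. Pfkm, the muscle-type subunit, overlapped between groups and did not pass, at 6.37 to 7.33 in AID-/- and 7.05 to 7.40 in AID+/+ arrays.

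From aldolase to lactate dehydrogenase, 6 of 12 measured genes fell, 1 rose and 5 did not pass, with a median of -0.35. Aldoa, the main aldolase, was at 11.33, 11.18 and 11.54 in AID-/- and 12.25, 11.86 and 12.52 in AID+/+ arrays. It fell by 0.86 (SE 0.17), or 1.81-fold (adjusted p = 0.0114), at all 5 of its probe sets. All 5 carry the x_at suffix, and the part of probes that can match other transcripts was not tested. Aldoc, the isozyme best known from brain, went the other way. Its values were 6.19, 6.94 and 7.58 in AID-/- and 5.50, 5.50 and 5.39 in AID+/+ arrays, a rise of 1.44 (SE 0.30, adjusted p = 0.0124) with uneven AID-/- arrays. Without AID+/+ replicate 3 its adjusted p was 0.0522, its dim second probe set did not pass, and over both the difference was 0.86.

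Tpi1, which interconverts the triose phosphates, showed the largest fall of this segment. It read 11.32, 11.14 and 11.52 in AID-/- and 12.27, 12.20 and 12.45 in AID+/+ arrays. It was lower by 1.98-fold (a fall of 0.98, SE 0.12, adjusted p = 0.00129), and all 3 probe sets passed. The one shown carries the x_at suffix, and the others do not. Pgk1, the first ATP-forming step, stood at 12.29, 12.47 and 12.64 against 13.15, 13.13 and 13.25. It fell by 0.71 (SE 0.11, adjusted p = 0.00345), again at all 3 probe sets, and it is one of the X-linked genes.

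Pkm, pyruvate kinase, was at 11.48, 11.81 and 11.99 in AID-/- and 12.75, 12.45 and 12.69 in AID+/+ arrays. It fell by 0.87 (SE 0.15), or 1.83-fold (adjusted p = 0.00532); its single probe set does not tell its splice forms apart here. Smaller decreases were seen for Pgam1, a phosphoglycerate mutase, and Ldha, the main lactate-forming subunit. Pgam1 was at 11.19, 11.20 and 11.31 against 11.54, 11.54 and 11.71, a fall of 0.37 (SE 0.09, adjusted p = 0.0264). Ldha was at 12.24, 12.20 and 12.49 against 12.70, 12.64 and 12.74, a fall of 0.38 (SE 0.10, adjusted p = 0.0365). In neither gene did the groups overlap. With AID-/- replicate 3 removed both still passed; removing any of the other 5 arrays ended both calls (adjusted p up to 0.104 for Pgam1 and 0.127 for Ldha).

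Gapdh, the dehydrogenase often used as a loading reference, was read only by the array's control probe sets, which are annotated to Gapdh alone. It was at 13.43, 13.49 and 13.52 in AID-/- and 13.60, 13.66 and 13.66 in AID+/+ arrays, near the top of the scale. The groups did not overlap, but the difference of -0.16 (95% interval -0.34 to 0.03) did not pass (adjusted p = 0.230). Its other control sets, fitted over all probe sets, differed by -0.24 (95% interval -0.44 to -0.03) and -0.21 (-0.41 to -0.01) and did not pass. With an intensity trend in the variance model Gapdh passed (adjusted p = 0.0461). The 3′ minus 5′ difference of the Gapdh control sets, a measure of RNA integrity, was -0.07 to -0.02 in AID-/- and -0.07 to 0.05 in AID+/+ arrays. For the actin control sets it was 0.37 to 0.45 in AID-/- arrays. In AID+/+ arrays it ran from 0.25 in replicate 1 to 0.55 in replicate 3. The minor isozymes Pgam2, Eno2 and Eno3 and the lactate dehydrogenase subunit Ldhb overlapped between groups and did not pass, with differences of -0.09, 0.09, -0.34 and -0.06.

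At the entry to the mitochondrion, Pdk1 showed the clearest change. It encodes a kinase that inactivates pyruvate dehydrogenase. Its values were 7.57, 8.21 and 8.03 in AID-/- and 9.26, 9.22 and 9.52 in AID+/+ arrays, a fall of 1.40 (SE 0.17), or 2.63-fold (adjusted p = 0.00123). Of its 4 probe sets 3 passed, all lower, and the fourth lay below the array medians. Pdha1, the X-linked catalytic subunit of the dehydrogenase itself, was at 10.87, 10.84 and 10.88 against 11.20, 11.26 and 11.33. It fell by 0.40 (SE 0.08, adjusted p = 0.0118) at 1 of 2 probe sets, and without AID+/+ replicate 3 the adjusted p was 0.0572. Pdk2, near the floor of the scale, and Pdk3 did not pass, with intervals of -0.12 to 0.62 and -0.12 to 0.37.

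Of the side enzymes, Bpgm, which makes 2,3-bisphosphoglycerate from a glycolytic intermediate, rose. It was at 6.95, 6.89 and 7.10 in AID-/- and 6.34, 6.25 and 6.31 in AID+/+ arrays. The rise was 0.68 (SE 0.09), or 1.60-fold (adjusted p = 0.00178), and all 3 probe sets passed. The one shown carries the s_at suffix, and the others do not. The 4 erythroid markers measured, a lineage known for this enzyme, lay at 3.60 to 4.82 in all arrays. The bifunctional enzymes that set fructose 2,6-bisphosphate did not pass. Pfkfb3 was at 7.61, 7.96 and 7.82 against 7.59, 7.03 and 7.29 (difference 0.49, SE 0.16, adjusted p = 0.0674). Pfkfb4 was at 6.64, 6.54 and 6.57 against 5.55, 6.41 and 6.07 (difference 0.57, SE 0.19, adjusted p = 0.0848). AID-/- arrays lay above AID+/+ arrays for both, narrowly. Pfkfb2 overlapped between groups.

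**Figure D2:**
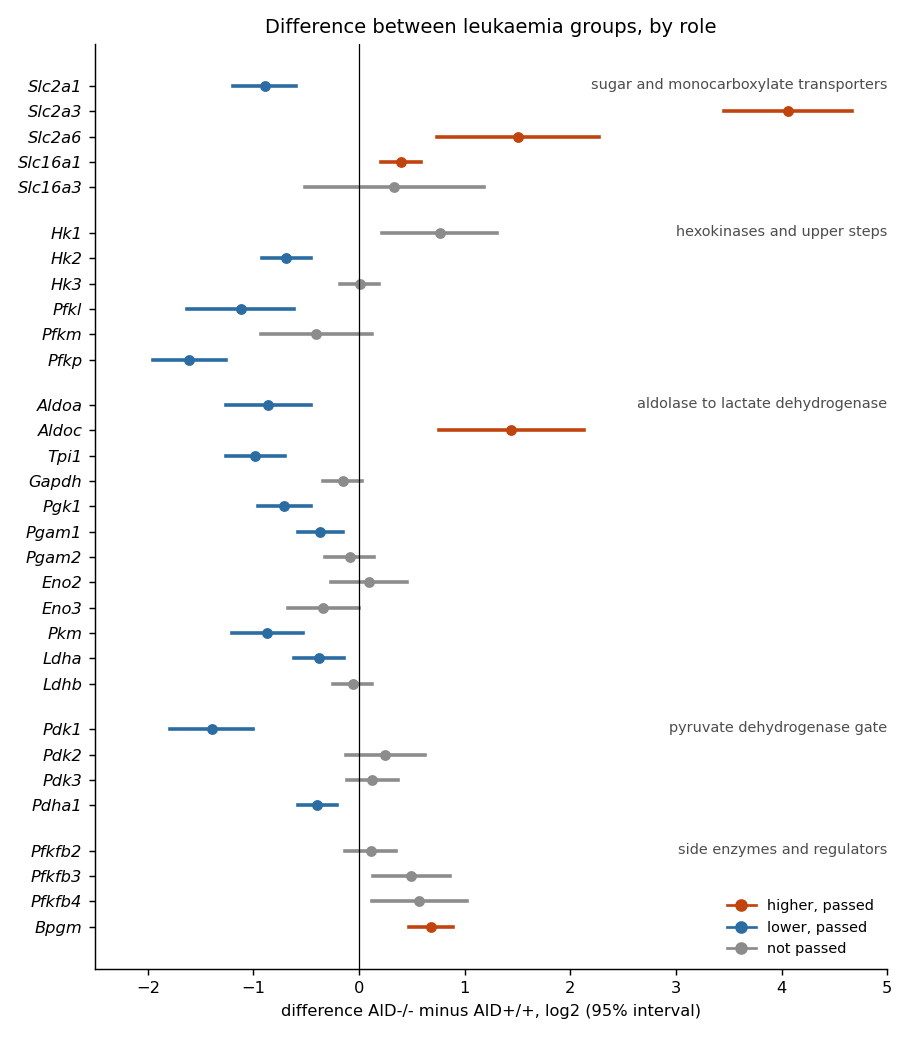
Difference in log2 expression, AID-/- minus AID+/+, for the 31 genes by role; points are fitted differences and bars their 95% intervals. Among the genes that passed, decreases run from -0.37 for Pgam1 to -1.61 for Pfkp and increases from 0.39 for Slc16a1 to 4.06 for Slc2a3; the others lie between -0.41 for Pfkm and 0.76 for Hk1.

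Not all arrays weighed alike. Among the 12 genes that fell, replicate 3 was the highest of the AID-/- arrays in 10 and the highest of the AID+/+ arrays in 10, and AID+/+ replicate 2 was the lowest of its group in 9. The genes that passed had a median SD of 0.18 in AID-/- and 0.13 in AID+/+ arrays, against 0.12 and 0.11 over all genes. With 1 array left out, 9 to 12 genes fell and 2 to 6 rose. Without AID+/+ replicate 3 only Slc2a3 and Bpgm still rose, while 11.8% of all genes passed in either direction. Without limma's variance moderation the calls on Slc2a6, Aldoc, Pfkl, Aldoa, Pkm, Pgam1 and Ldha were lost.

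Because different probe sets cannot be set against each other in level, the balance between isozymes was followed as their difference within each array. Of 13 pairs, 10 had groups that did not overlap, where 41.5% of all possible pairs of measured genes did not overlap. Hk1, Pfkl, Pdk1 and Pfkfb3 recur among the pairs, and 21 of the 31 members already did not overlap singly. The count of pairs is therefore not independent of the differences of single genes. For each of the 10 the exact two-sided permutation test gave p = 0.10, the smallest possible with 3 arrays against 3, or 0.13 after adjustment over the 13 pairs. No pair could therefore pass. The widest was Slc2a1 minus Slc2a3, at 4.36 ± 0.49 in AID+/+ and -0.59 ± 0.28 in AID-/- arrays (SD, n = 3 each). Aldoa minus Aldoc was 6.74 ± 0.39 against 4.45 ± 0.61, and Hk1 minus Hk2 was -1.44 ± 0.18 against 0.02 ± 0.53. Pdk1 minus Pdk3 went from 0.17 ± 0.18 to -1.35 ± 0.22. These sizes lay beyond the spread of the arrays. The pairs Slc16a1 with Slc16a3 and Pfkfb3 with Pfkfb4 differed by 0.06 (SE 0.52) and -0.07 (SE 0.43), within the spread, and Pgam1 minus Pgam2 overlapped as well.

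**Figure D3:**
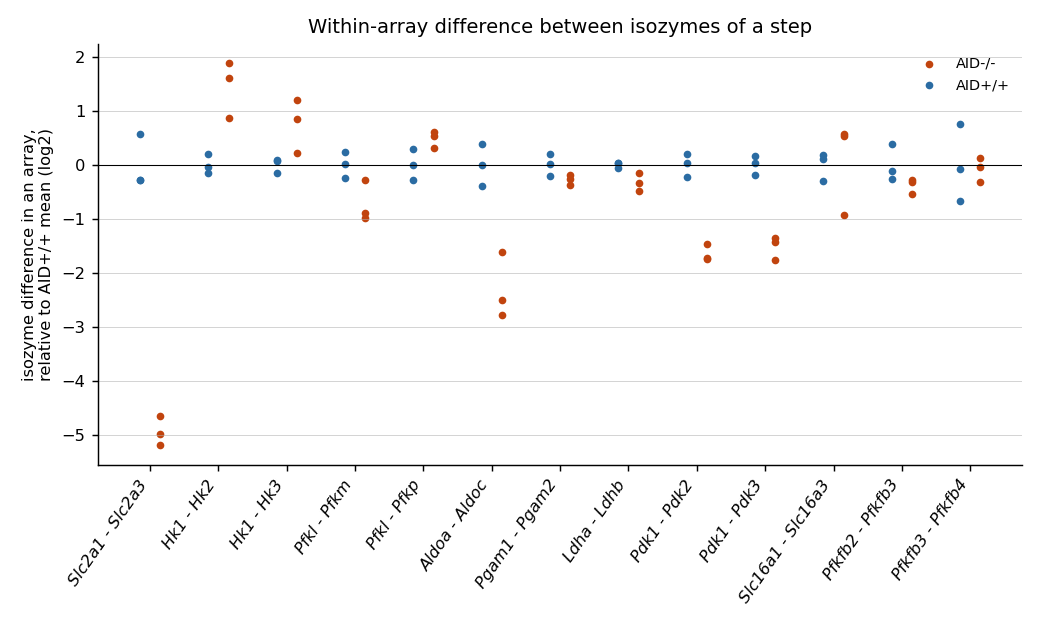
Difference between 2 isozymes of a step within each array (first minus second gene, log2), shown relative to the AID+/+ mean of that pair; each point is 1 array. The 3 AID-/- arrays lie furthest from the AID+/+ arrays for Slc2a1 minus Slc2a3 and Aldoa minus Aldoc, with shifts of -4.95 and -2.30, and the arrays mix for Slc16a1 minus Slc16a3.

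Other genes around glycolysis were followed from lists compiled by role. The 4 genes of each with the smallest p are named here, with Egln2, Egln3, Myc and Max added to the regulators. Other X-linked genes of the lists are named above. Over all genes 10.1% rose, 8.41% fell and 18.5% passed in either direction. Among 18 further sugar transporters and isozymes 2 fell (11.1%) and the other 16 did not pass. Slc2a8, an intracellular hexose carrier, fell by 0.34 and Pklr, the liver and red cell pyruvate kinase, fell by 0.45. Each call was lost for 5 of the 6 arrays when that array was left out, and over all its probe sets Pklr differed by -0.19. Slc5a2 and Slc2a9 differed by -0.38 and 0.32 without passing.

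The pentose phosphate pathway draws on glucose 6-phosphate to make ribose and NADPH. Of its 11 measured genes 5 rose (45.5%) and the other 6 did not pass, with a median of 0.31. Rpia, the ribose 5-phosphate isomerase, was at 11.08 to 11.48 in AID-/- and 10.38 to 10.49 in AID+/+ arrays, higher by 0.84 (SE 0.11, adjusted p = 0.00210). Rpe, an epimerase, Taldo1, transaldolase, and Pgd, the second oxidative enzyme, were higher by 0.50, 0.41 and 0.45; over all its probe sets Rpe was higher by 0.28. The count fell to 2 without AID-/- replicate 3 and to 3 without any single AID+/+ array.

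Genes for pyruvate entry were mostly close between the groups, with 1 of 12 higher (8.33%) and 2 lower (16.7%). Emb, which encodes embigin, a partner of monocarboxylate carriers, rose by 1.64 (SE 0.30, adjusted p = 0.00801), from 4.77 to 4.86 in AID+/+ to 5.99 to 7.29 in AID-/- arrays, or by 1.03 over its probe sets. Pdpr and Pdp1, parts of the phosphatases that reactivate pyruvate dehydrogenase, fell by 0.39 and 0.50. The call on Pdpr was lost without AID+/+ replicate 3 and that on Pdp1 without any array but AID+/+ replicate 1. Pdhx differed by 0.09 without passing.

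Among 8 gluconeogenesis genes, Pck2, the mitochondrial carboxykinase, fell by 1.57 (SE 0.15), or 2.96-fold, and Slc37a4, the glucose 6-phosphate translocase, fell by 1.18 (SE 0.12). Fbp1, which opposes phosphofructokinase, rose by 1.19 (SE 0.31), but not with AID-/- replicate 1 or any AID+/+ array removed (adjusted p up to 0.105). Pcx differed by -0.51 and did not pass. Glycogen genes moved both ways, with 5 of 14 higher (35.7%) and 2 lower (14.3%). Without any single AID+/+ array 3 were higher and 1 lower. Gyg, the glycogen primer, Phka1, an X-linked phosphorylase kinase subunit, and Pygl, a phosphorylase near the floor in AID+/+ arrays, rose by 1.08, 1.26 and 2.60, while Pgm1, a phosphoglucomutase, fell by 1.11.

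In the serine branch, which leaves glycolysis at 3-phosphoglycerate, Shmt2, the mitochondrial hydroxymethyltransferase, fell by 1.12 (SE 0.09), or 2.17-fold. Psat1 and Psph, enzymes of serine synthesis, fell by 0.39 and 0.51, and neither passed with replicate 2 of either group, or AID+/+ replicate 3, removed. Gnpnat1, of the hexosamine branch, rose by 0.53, a call that held only with AID-/- replicate 3 left out among the single arrays, and over its probe sets it differed by 0.19. In all, 2 of these 10 genes rose (20%) and 3 fell (30%). With 1 array left out, 0 to 1 rose and 1 to 3 fell. Of 17 tricarboxylic acid cycle genes 2 rose and 1 fell, or 17.6% in all, near the 18.5% of all genes that passed. Suclg2 and Fh1 were higher by 0.64 and 0.40, the X-linked Idh3g fell by 0.48, and Idh3b did not pass.

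Among 24 regulators 4 rose (16.7%) and 2 fell (8.33%). With 1 array left out 1 to 4 rose, fewest without AID-/- replicate 3. Hif1a, the oxygen-regulated subunit of HIF-1, rose by 0.46 (SE 0.10, adjusted p = 0.0181), but missed the threshold with replicate 3 of either group or AID+/+ replicate 1 removed (adjusted p up to 0.0720). Egln1, a prolyl hydroxylase that marks HIF for destruction, fell by 0.43 (SE 0.08). Its relative Egln3 went the other way, higher by 1.90 (SE 0.49, adjusted p = 0.0321). Egln3 was uneven, at 4.25, 6.52 and 5.88 in AID-/- and 3.51 to 3.80 in AID+/+ arrays. The call on Egln3 was not checked on its own with arrays left out. Egln2 differed by -0.09 without passing. Myc differed by -0.68 (SE 0.21), without overlap and without passing (adjusted p = 0.0572), and its partner Max by -0.41, also without passing. Tigar, a phosphatase that lowers fructose 2,6-bisphosphate, was at 6.41 to 6.64 in AID-/- and 5.33 to 5.69 in AID+/+ arrays, higher by 0.95 (SE 0.12, adjusted p = 0.00153). Mtor, the growth kinase, fell by 1.29 (SE 0.16), or 2.45-fold (adjusted p = 0.00132).

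Targets of hypoxia-inducible factors outside glycolysis had a median of -0.28 over 13 genes, with 4 lower (30.8%) and 1 higher (7.69%). Vegfa, an angiogenic factor, was at 8.45 to 9.05 in AID-/- and 10.13 to 10.29 in AID+/+ arrays, a fall of 1.41 (SE 0.16, adjusted p = 0.000822). Mxi1, a MYC antagonist, and Kdm3a, a histone demethylase, fell by 1.52 (SE 0.17) and 1.09 (SE 0.16). Car9, carbonic anhydrase IX, rose by 0.79 (SE 0.10), at low signal in both groups. Among the genes of the linked pathways named by smallest p, some calls were lost without variance moderation. These were Pklr, Emb, Pdp1, Pgd, Fbp1, Pygl, Psph, Gnpnat1, Suclg2, Hif1a and Kdm3a.

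**Figure D4:**
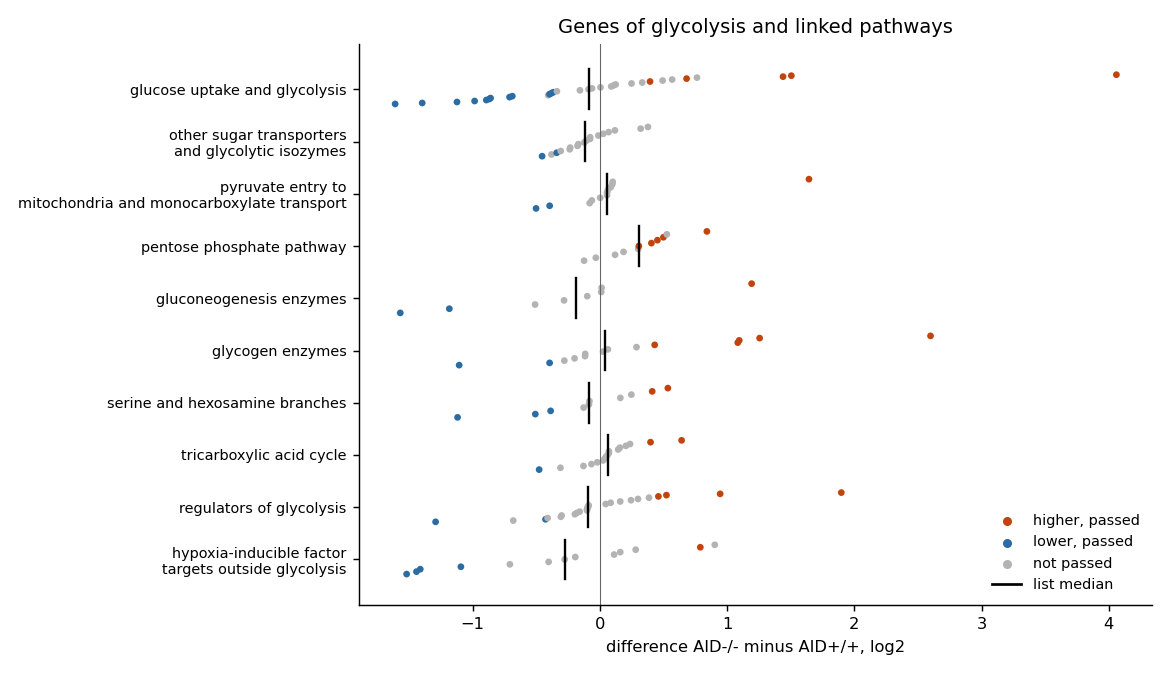
Difference in log2 expression, AID-/- minus AID+/+, for the genes of each list; each point is 1 gene, coloured by whether it passed at an adjusted p under 0.05, and the bar is the list median. The glucose uptake and glycolysis genes spread from -1.61 to 4.06 around a median of -0.09, and the pentose phosphate genes centre at 0.31.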

How the data were processed

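Expression was measured on 6 Affymetrix arrays, 3 AID-/- and 3 AID+/+ leukaemias, grouped by their titles. The authors deposited log2 expression values, 1 column per array; RMA and Partek are named per the submitters' processing notes, without versions, order of steps or genome build. RMA, as usually run, brings arrays to 1 distribution and combines the probes of a set. Of 45101 probe sets, 45050 were tested; control probe sets were left out except 13 annotated to 1 mouse gene. Of those tested, 34958 had 1 gene symbol, 932 had several and 9160 were not named. Of these symbols 34754 matched RefSeq (GRCm38.p6) through their Entrez identifier and took its name.

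The brightest probe set on average stood for a gene, giving 18194 genes. The group difference was estimated with limma 3.58.1 (R 4.3.3; lmFit and eBayes, no covariate), two-sided, Benjamini-Hochberg adjusted over all genes, threshold 0.05. SE is moderated and SD is over 3 arrays. The number of arrays limits the precision. The gene that defines the groups is not reported here. Members and lists were chosen with earlier results of these data known. All members are given. Of each further list the 4 genes with the smallest p are named, with Egln2, Egln3, Myc and Max added to the regulators. Other genes of these lists are named where they are X-linked. The fit was tested on simulated data of 18194 genes with known changes. It recovered 19.4% of changes of 0.5 log2 units, 83.6% of 1 and 98.5% of 2, with 5 false calls. Small differences can therefore go uncalled. Alternatives were 2 normalizations, a filter on dim genes, other variance models, array weights, averaged probe sets, a fit over all probe sets, the replicate block, dropping the X and Y chromosomes, other thresholds and leaving out each array.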

Additional observations from a re-analysis of the deposited data

How the results depend on the processing

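The 5 genes that rose and the 12 that fell were all called again under quantile normalization, array median centring, the filter on dim genes, the intensity trend, array weights, averaged probe sets and the fit over all probe sets. Without variance moderation 3 rose and 7 fell, while 8.99% of all genes passed; at an adjusted p under 0.01 it was 2 and 7, and under 0.1 it was 8 that rose. With 1 array left out, 2 to 6 rose and 9 to 12 fell. Without genes of chromosomes X and Y, 5 rose and 10 fell. Deviations of same-numbered arrays correlated at -0.05, -0.07 and 0.03 over all probe sets. With 3 arrays per group this cannot tell whether the numbers pair the arrays. With the replicate block 5 rose and 10 fell, Pgam1 and Ldha no longer passing. No called gene changed direction. Over the alternatives 26 calls on single genes of the list were lost and 7 gained. The calls on Slc2a3, Slc2a1, Hk2, Pfkp, Tpi1, Pgk1, Pdk1 and Bpgm held in every alternative that could be run. Without moderation Pfkl, Aldoa and Pkm did not pass (adjusted p = 0.101, 0.0984 and 0.0641). Values near the floor, as for Eno2 and Pdk2, hold little order.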
